A study of Mus musculus with 36 samples.

Results

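Mitosis and spindle genes are described here in Lewis lung carcinoma tumours grown in mice and in cultured cells of the same line. The 40 listed genes encode the kinases, motor proteins, checkpoint proteins and destruction factors that separate the chromosomes and divide the cell. They were chosen by name, and 38 of the 40 had a probe on the array under the symbol in the platform's table, with 76 probes among 34885 probes that carry a single symbol (19057 genes). The absent ones were Mki67, the gene of the proliferation antigen Ki-67, and Ccnb1, which encodes cyclin B1. Of the 38, 30 were tested, because their probe had a detection p-value under 0.05 on at least 5 tumour arrays.

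Mitosis is driven by Cdk1 bound to A- and B-type cyclins, and the Aurora and Polo-like kinases then build the spindle and correct the attachment of chromosomes to it. The spindle checkpoint (Bub1b, Mad2l1, Ttk, Bub1) holds back the anaphase-promoting complex until every kinetochore is attached, after which Cdc20 and Ube2c direct securin and cyclin B to destruction, separase (Espl1) cuts cohesin, and the furrow closes through Anln, Ect2 and Racgap1. Most of these genes are transcribed only late in the cell cycle, so their messenger RNA is high in dividing tissue and low in tissue at rest. The transcription factors Foxm1 and Mybl2 activate many of them, and both are members of the list.

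The study asked how host age and iron-ion irradiation change tumours formed from one line of mouse lung carcinoma cells. Total RNA from 30 tumours of male mice was measured on Illumina Mouse WG-6 BeadArrays: 10 came from young mice that were not irradiated, 8 from young mice given 5 exposures of 0.2 Gy of 56Fe, 7 from middle-aged mice without irradiation and 5 from middle-aged mice given the same exposures. All tumours came from Lewis lung carcinoma (LLC) cells, so every group shares that cell line, and 6 further arrays carried RNA of LLC cells as technical chip controls, 3 in each of 2 batches. The labels give no mouse strain, no age in weeks and no time between exposure and tumour, and the tumour samples are pieces of tissue that hold host cells as well as tumour cells. The tumours are described as replicate biological samples, but no source used here says that each came from its own mouse, so p-values measure only the spread between these samples.

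The arrays differed in brightness. The 75th percentile of unnormalized signal ran from 91.6 to 1123 over the tumours and from 168 to 280 over the cell arrays, and the dimmest arrays, young irradiated replicates 6 and 8, detected 11860 and 14828 probes against 17329 to 19843 on the other tumours. Levels below are log2 intensities after background correction and quantile normalization, and each gene is represented by its brightest probe over the tumours. No probe's level is set against another probe's.

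Promoters of the members are shown first because a shared short motif is the sequence feature for which late cell cycle genes are known. The cell cycle genes homology region (CHR), with the core TTTGAA, is bound by the MuvB complex, which recruits repressors in resting cells and Mybl2 and Foxm1 in dividing cells. The CCAAT box, often found upstream of it, is bound by the factor NF-Y. RefSeq promoters of build GRCm38.p6, from 250 bases before to 50 bases after the annotated start, were given for 34 of the 40 genes, and the first listed start of each gene was used. Not among them were Aurkb, Ccna2, Foxm1, Incenp, Kif20a and Tpx2. On either strand, TTTGAA stood in 25 of the 34 member promoters (73.5%) and in 18.1% of all 27025 promoters. CCAAT stood in 25 of 34 (73.5%) against 37.9% of all, and both motifs in 22 of 34 (64.7%) against 7.12% of all. In 23 genes a TTTGAA began between 30 bases before and 50 bases after the start. The median GC content was 58.8% in the member promoters and 52.7% in all promoters. Motif matches shared bases in 2 of the 34 promoters. A match is a description of letters and not a binding site.

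The 120 bases before the start are printed for 8 genes, with matches to TTTGAA (or its reverse complement TTCAAA) and CCAAT (or ATTGG) in capitals. Cdk1, Ube2c, Cdc20 and Ect2 had lower transcript levels in tumours than in cells by the test given further on, and all hold the CHR core within this stretch. Kif11, the motor that pushes spindle poles apart, and Espl1 (separase) hold it too but did not pass that test. Birc5 (survivin) and Mad2l1 passed the test with neither motif in their 300-base promoters.
Cdk1, chr10:69352913-69353032, minus strand: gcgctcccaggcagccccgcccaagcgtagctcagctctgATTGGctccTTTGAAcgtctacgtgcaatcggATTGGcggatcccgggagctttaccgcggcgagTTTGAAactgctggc
Ube2c, chr2:164769809-164769928, plus strand: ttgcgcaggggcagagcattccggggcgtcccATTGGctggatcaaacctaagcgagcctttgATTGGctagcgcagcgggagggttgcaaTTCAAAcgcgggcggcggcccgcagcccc
Cdc20, chr4:118437344-118437463, minus strand: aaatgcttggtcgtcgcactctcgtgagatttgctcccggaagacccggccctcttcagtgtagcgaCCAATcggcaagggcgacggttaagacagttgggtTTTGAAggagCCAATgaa
Ect2, chr3:27153879-27153998, minus strand: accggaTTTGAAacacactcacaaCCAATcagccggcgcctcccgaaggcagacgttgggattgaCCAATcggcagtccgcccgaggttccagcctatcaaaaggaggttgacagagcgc
Kif11, chr19:37376262-37376381, plus strand: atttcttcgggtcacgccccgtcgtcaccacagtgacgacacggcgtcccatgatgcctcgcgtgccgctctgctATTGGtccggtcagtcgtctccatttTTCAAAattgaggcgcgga
Espl1, chr15:102296173-102296292, plus strand: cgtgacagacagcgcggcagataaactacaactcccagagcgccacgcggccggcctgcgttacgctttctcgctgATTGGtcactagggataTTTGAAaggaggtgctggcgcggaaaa
Birc5, chr11:117849117-117849236, plus strand: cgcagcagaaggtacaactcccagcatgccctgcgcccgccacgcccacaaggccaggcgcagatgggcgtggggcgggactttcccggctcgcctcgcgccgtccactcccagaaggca
Mad2l1, chr6:66535101-66535220, plus strand: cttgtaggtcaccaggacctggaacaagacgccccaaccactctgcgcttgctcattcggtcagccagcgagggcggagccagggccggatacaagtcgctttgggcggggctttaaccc

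Within these stretches, the TTTGAA of Cdk1 began 71 and 15 bases before the start, that of Cdc20 18 bases before and that of Espl1 27 bases before, while the reverse complement began 29 bases before the start in Ube2c and 19 before in Kif11. The Ect2 match in the printed stretch lies further away, 114 bases before the start, and another, outside it, begins at base 40 after the start. Among the members that were tested and had a promoter sequence, the median log2 difference between tumours and cells was -0.79 for the 20 with TTTGAA (12 lower by the test) and -0.97 for the 5 without (4 lower).

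**Figure D1:**
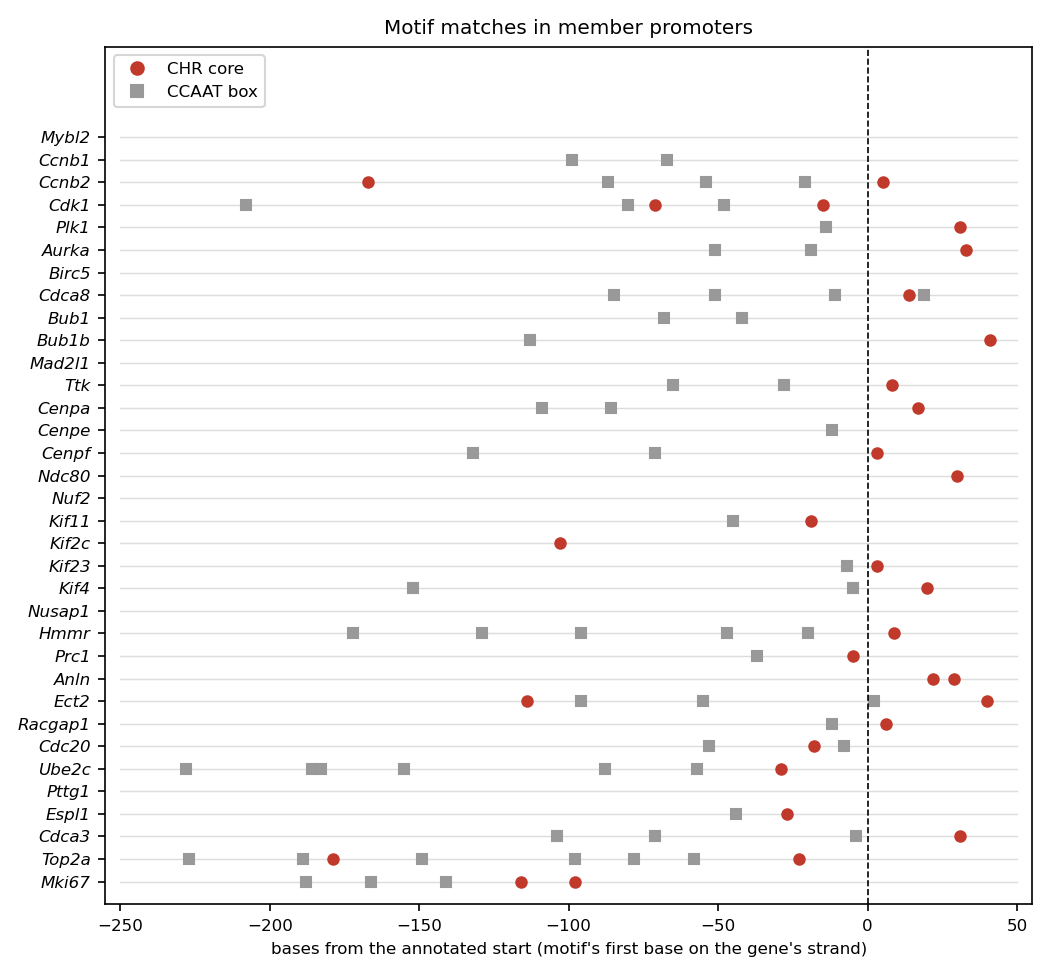
Position of motif matches in the RefSeq promoters of 34 members; the horizontal axis is the distance in bases of the motif's first base from the annotated start, circles mark the CHR core and squares the CCAAT box. In 23 genes a circle lies between 30 bases before and 50 bases after the start, and 6 genes have no mark.

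On the tumour arrays 27 of the 38 members were bright, with the probe used detected on at least 29 of 30 tumours. Ccna2 (cyclin A2) was detected on 6 tumours, Ube2c, the ubiquitin-conjugating enzyme of the anaphase-promoting complex, on 8, and Pttg1 (securin, the inhibitor of separase) on 14. Over the groups, Ube2c was detected in 5 of 10 young unirradiated, 3 of 8 young irradiated, 0 of 7 middle-aged unirradiated and 0 of 5 middle-aged irradiated tumours, Ccna2 in 4, 2, 0 and 0 of them and Pttg1 in 4, 3, 4 and 3 of them. Among all 10908 genes tested between tumours, 0.348% were detected on young but no middle-aged tumours and 0.0550% on middle-aged but no young ones. The difference in detection was not tested. The 8 members left out of the tests were too dim to measure. Ccnb2 (cyclin B2), the checkpoint kinase gene Bub1, Cenpe (a kinetochore motor), Kif20a (a cytokinesis motor) and Hmmr (a spindle-associated hyaluronan receptor) were detected on no tumour and no cell array. Racgap1, a partner of Kif23 in the central spindle, was detected on 0 tumours and 1 cell array, Nuf2, the partner of Ndc80, on 1 tumour and 0 cell arrays, and Ttk, the checkpoint kinase Mps1, on 1 tumour and 3 cell arrays. Since these 8 probes are not well above background even in cultured cells, their values do not show whether the genes differ.

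Every tested member had a lower mean level in the tumours than in cultured LLC cells, and 19 of 30 passed the test. The members' median log2 difference was -0.80, against -0.07 over all 11106 genes tested. Of all tested genes 9.32% were lower in tumours by the same test and 11.7% were higher, while 0 members were higher. The 19 comprised the factors Foxm1 and Mybl2, the kinase Cdk1, all 3 of Plk1, Aurka and its activator Tpx2, the passenger proteins Aurkb, Birc5 and Cdca8, the checkpoint genes Mad2l1 and Bub1b, the kinetochore gene Ndc80, the motor Kif4, the midzone bundler Prc1, Anln and Ect2 of the cleavage furrow, and Cdc20, Ube2c and Pttg1 of the destruction machinery. For 15 of the 30 members all 30 tumours lay below every one of the 6 cell arrays, which held for 8.93% of all tested genes. In bulk tissue, fewer dividing cells and less of a transcript per cell cannot be told apart, and neither can growth in a mouse and any difference in the handling of cells and tissue.

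**Figure D2:**
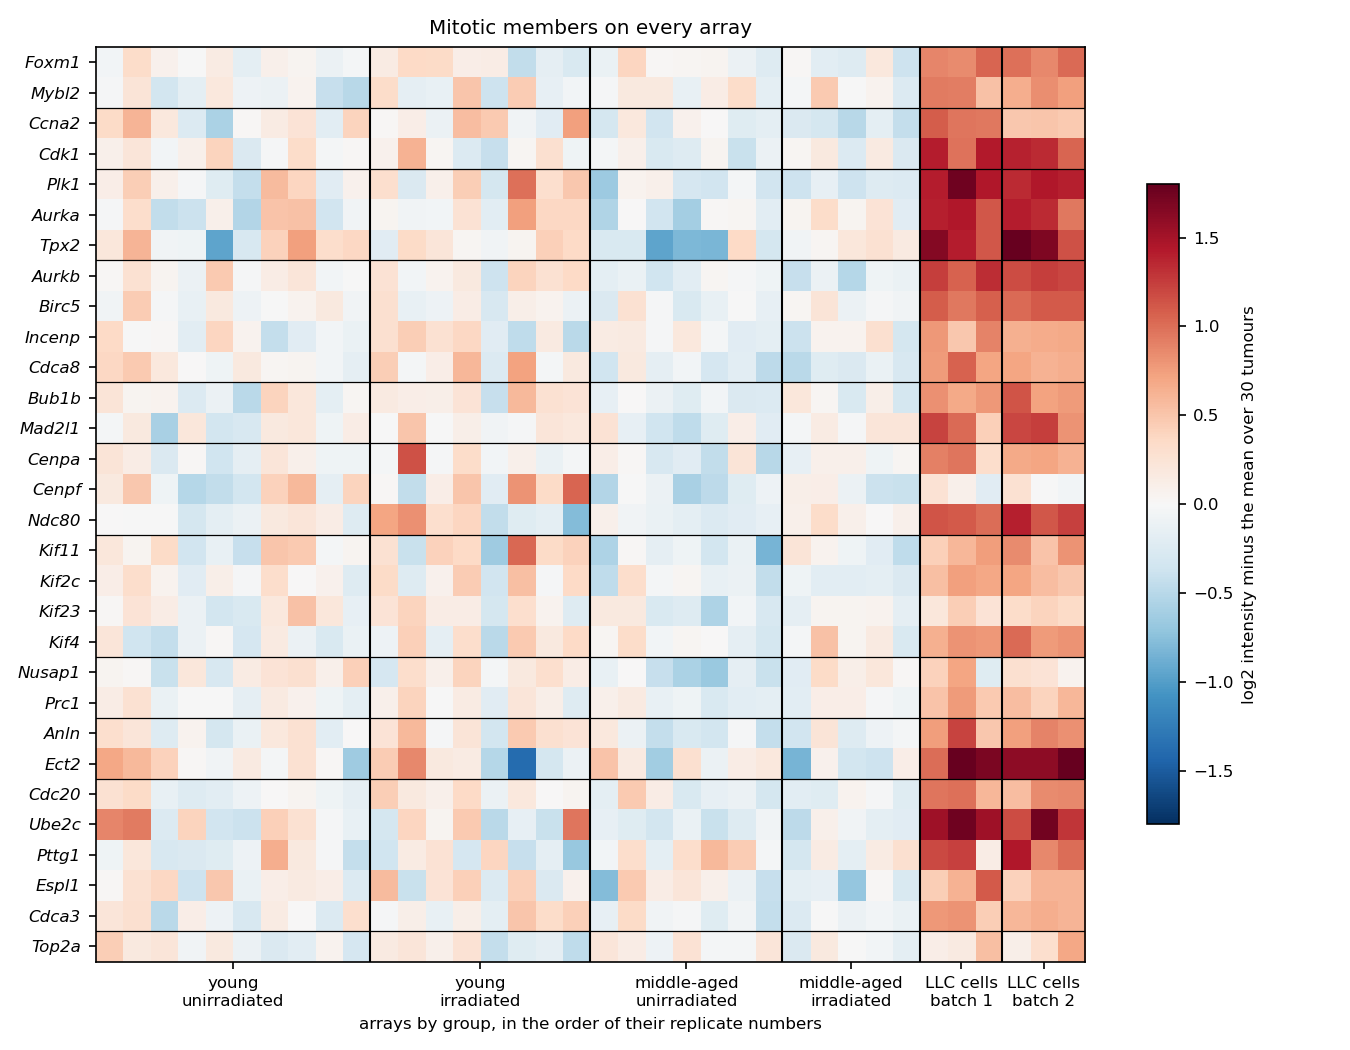
Level of the 30 tested members on all 36 arrays as log2 intensity minus the gene's mean over 30 tumours, with genes in rows by role and arrays in columns by group. The 6 cell arrays on the right are above the tumour mean for nearly all members, and Cenpf is near 0 there.

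Among the mitotic kinases, Aurkb, the catalytic subunit of the chromosomal passenger complex, had levels of 8.89 to 9.87 with a median of 9.39 over 30 tumours, and 10.47 to 10.73 with a median of 10.63 over the 6 cell arrays. All tumours lay below all cell arrays. The difference was -1.24 ± 0.21 (SE), a 2.37-fold lower level (adjusted p = 6.71e-05). Plk1, the Polo-like kinase of mitotic entry, ran from 9.67 to 11.31 (median 10.29) in tumours and from 11.66 to 12.07 (median 11.75) in cells, again without overlap, and the difference was -1.50 ± 0.32 (adjusted p = 0.000848). Aurka, the centrosomal Aurora kinase, ran from 9.06 to 10.41 (median 9.68) in tumours and from 10.62 to 11.10 (median 11.04) in cells. It was lower by -1.27 ± 0.32 (adjusted p = 0.00432). Tpx2, which activates Aurka on the spindle, differed by -1.48 ± 0.38 (adjusted p = 0.00531). Cdk1, the kinase that starts mitosis, had tumour levels of 9.84 to 10.88 (median 10.28) and cell levels of 11.24 to 11.68 (median 11.62). The groups did not overlap, and the difference was -1.28 ± 0.24 (adjusted p = 0.000279), a 2.42-fold lower level. Its partner Ccna2 differed by -0.78 ± 0.30 and did not pass (adjusted p = 0.0610).

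For the transcription factors, Foxm1 levels were 8.15 to 8.98 (median 8.62) in tumours and 9.45 to 9.65 (median 9.53) in cells, with all 30 tumours below every cell array and a difference of -0.96 ± 0.23 (adjusted p = 0.00294). Mybl2 (B-Myb) was lower by -0.76 ± 0.27 (adjusted p = 0.0424) with no overlap either. Of the passenger complex, Birc5 (survivin) ran from 10.57 to 11.31 (median 10.83) over the tumours and from 11.80 to 11.96 (median 11.93) over the cell arrays, without overlap. Its difference was -1.06 ± 0.20 (adjusted p = 0.000183). Cdca8 (borealin) was lower by -0.79 ± 0.25 (adjusted p = 0.0222), and the scaffold Incenp, at -0.70 ± 0.28, did not pass (adjusted p = 0.0812).

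In the spindle checkpoint, Mad2l1, the protein that sequesters Cdc20, had levels of 9.92 to 10.99 (median 10.49) in tumours and 10.93 to 11.75 (median 11.61) in cells, with 29 of 30 tumours below every cell array and a difference of -0.98 ± 0.24 (adjusted p = 0.00353). Bub1b (BubR1) was lower by -0.83 ± 0.25 (adjusted p = 0.0150). In the destruction machinery, Ube2c levels were 4.74 to 6.18 (median 5.08) in tumours and 6.39 to 6.97 (median 6.75) in cells. The ranges did not meet, and the difference was -1.53 ± 0.39 (adjusted p = 0.00490). The probe was detected on only 8 of 30 tumours, so the level in cells was at least 2.17-fold that in tumours. By group, its level in cells was at least 2.34-fold that in middle-aged unirradiated tumours (means 6.72 and 5.01, adjusted p = 0.00288) and at least 2.54-fold that in middle-aged irradiated ones (mean 5.06, adjusted p = 0.00518), where no array detected it. These bounds set each tumour array at the higher of the probe's own level and the lowest level of any detected probe. Cdc20, the activator of the anaphase-promoting complex, was lower by -0.81 ± 0.22 (adjusted p = 0.00772) and securin (Pttg1) by -0.97 ± 0.32 (adjusted p = 0.0276). Espl1 (separase) and Cdca3, an adaptor in the degradation of Wee1, had differences of -0.66 ± 0.33 and -0.66 ± 0.25 and did not pass (adjusted p = 0.164 and 0.0549).

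Ect2, the exchange factor that activates RhoA at the furrow, had the lowest estimate of all members, -1.66 ± 0.46 (adjusted p = 0.00978), with tumour levels of 5.66 to 7.91 and cell levels of 8.04 to 9.11. Anln (anillin), which anchors the contractile ring, was lower by -0.84 ± 0.25 (adjusted p = 0.0168). The kinetochore genes spanned a wide range. Ndc80, which binds microtubules, was lower by -1.16 ± 0.32 (adjusted p = 0.00933), while Cenpf, a large protein of the outer kinetochore, differed by -0.08 ± 0.38 (adjusted p = 0.905), with tumour levels of 6.01 to 7.64 around cell levels of 6.40 to 6.87. The interval of the Cenpf difference, -0.86 to 0.69 at 95%, still includes differences as large as those of many members that passed. Cenpa, the centromeric histone H3 variant, differed by -0.70 ± 0.29 (adjusted p = 0.0839).

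Motors and microtubule bundlers had estimates between -0.79 and -0.26. Kif4, a chromosome-bound kinesin, differed by -0.79 ± 0.27 (adjusted p = 0.0362) and Prc1 by -0.56 ± 0.19 (adjusted p = 0.0349), and both passed. The motor Kif11 at -0.68 ± 0.37, the microtubule depolymerase Kif2c at -0.64 ± 0.25 and the central spindle kinesin Kif23 at -0.34 ± 0.25 did not (adjusted p = 0.202, 0.0653 and 0.385). Nusap1, which links microtubules near chromosomes, at -0.26 ± 0.25, and Top2a, the topoisomerase that untangles sister chromatids, at -0.32 ± 0.24, did not pass either (adjusted p = 0.508 and 0.374), and their tumour and cell levels overlapped. In 14 genes several probes were detected. In 12 of them the other probes lay further below the cells on average than the brightest one, for example -1.57 against -0.84 for Anln and -1.44 against -0.79 for Cdca8. Only Kif23 had detected probes of opposite sign, from -0.52 to 0.08.

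**Figure D3:**
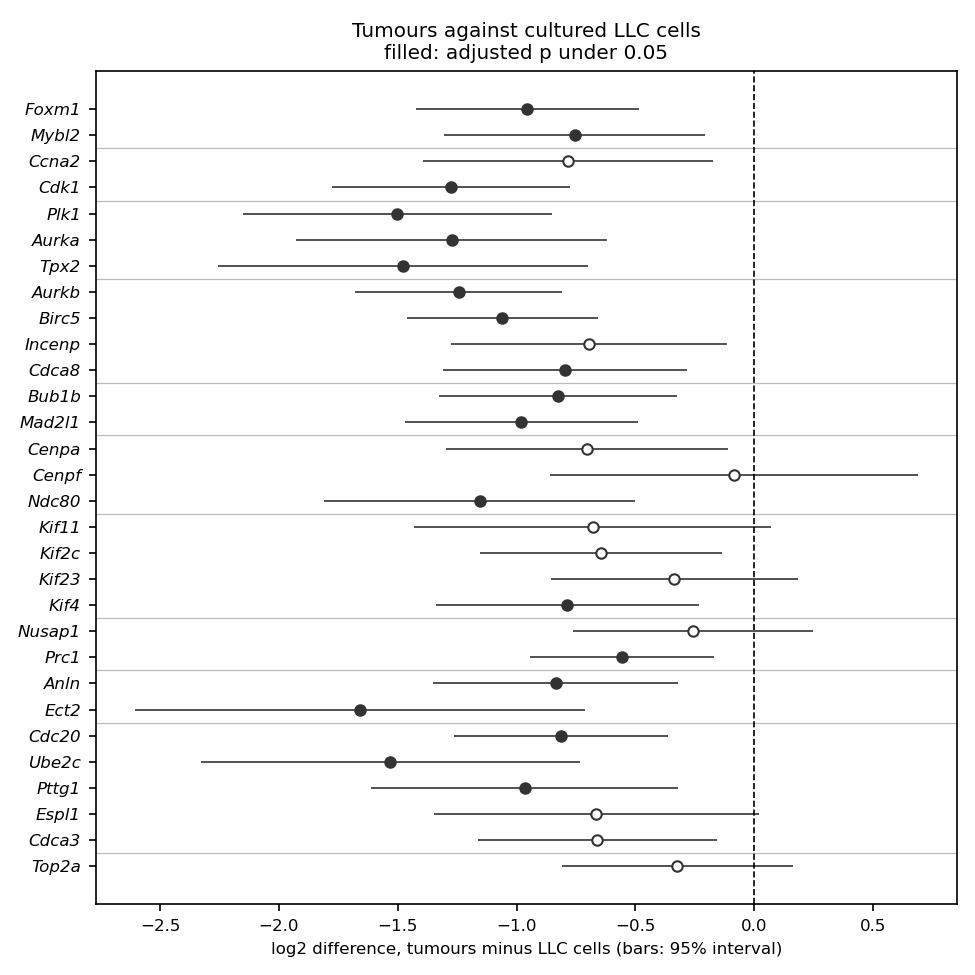
Log2 difference between the mean of the 4 tumour groups and the LLC cells for 30 members by role, with 95% intervals; filled points passed the test at an adjusted p under 0.05. All 30 points lie below 0, from -1.66 for Ect2 to -0.08 for Cenpf.

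The 6 cell arrays are technical controls and were averaged to 1 sample, so the limma fit assumes that cultures vary as the tumours of a group do. With each array scaled to its median instead of quantile normalized, the members' median difference was -1.33 against -0.22 over all genes, all 30 remained below 0, and 2 members passed, Plk1 and Ube2c, as the calls over all genes fell from 2329 to 386.

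Against the same cells, 17 members were lower in young unirradiated tumours, 13 in young irradiated, 21 in middle-aged unirradiated and 19 in middle-aged irradiated tumours, where 8.17%, 8.45%, 9.72% and 7.73% of all tested genes were lower. These comparisons share the cell arrays. The members' medians were -0.82, -0.65, -0.90 and -0.90 in that order. Aurkb differed by -1.11, -1.07, -1.34 and -1.45, Plk1 by -1.38, -1.21, -1.68 and -1.74, and Tpx2 by -1.34, -1.32, -1.91 and -1.34. Cenpf alone had a positive value in any group, 0.22 in young irradiated tumours. Ccna2, not well above background on any middle-aged array, was at least 1.36-fold higher in cells than in middle-aged unirradiated tumours (means 5.94 and 5.08, adjusted p = 0.0499) and at least 1.47-fold higher than in middle-aged irradiated ones (mean 4.86, adjusted p = 0.0171).

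Other cell cycle genes give the setting of the members. Of 28 tested genes of replication licensing and S phase, 26 were lower in tumours and 0 higher, with a median of -0.97, among them Orc1, a subunit of the origin recognition complex, at -1.84 ± 0.26 (adjusted p = 2.98e-06) and the thymidine kinase Tk1 at -1.33 ± 0.24 (adjusted p = 9.68e-05). Of 25 other centromere and kinetochore genes, 11 were lower (median -0.90), with Nsl1 at -1.83 and Cenpp at -1.17. Of 14 other genes of mitotic entry, 8 were lower (median -0.98), with Pimreg at -1.24 and the kinase Melk at -1.59. Of 21 other spindle, kinesin and cytokinesis genes, 6 were lower (median -0.91), with Ckap2 at -1.19 and Kif18b at -1.32.

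The remaining lists were those of chromosome structure, G1, transcriptional control and protein destruction. The condensins gave 2 of 8 lower (median -0.57), Ncaph at -0.88 and Ncapg at -1.23. G1 cyclins and kinases gave 4 of 12 lower (median -0.46), with Ccne2 (cyclin E2) at -2.05 and the phosphatase Cdc25a at -1.31. DREAM and MuvB complex genes gave 3 of 8 lower (median -0.57), with Tfdp1 at -0.73 and Lin54, the subunit that reads the CHR, at -0.72. Cohesin gave 1 of 13 lower, the centromere protector Sgo1 at -1.40, and 1 higher, the cohesin loader Nipbl at 0.67. The anaphase-promoting complex gave 1 of 13 lower, Anapc15 at -1.49, and Cdc16 at -0.54 did not pass. Of 14 inhibitors of cyclin-dependent kinases and quiescence genes, 0 passed in either direction (median 0.35, 3 at an unadjusted p under 0.05), with Btg1 at 0.79 (adjusted p = 0.0635) and Ccng2 at 0.97 (adjusted p = 0.0702).

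Markers of several host cell types were higher in tumours, though many of them entered the test only through their detection there. All 11 macrophage markers with a probe were higher in tumours, with a mean level of 8.80 to 10.51 over the tumours against 5.17 to 5.32 over the cell arrays and a summed unnormalized intensity of 1875 to 93434 against 1277 to 2030. Of these, 9, among them Adgre1, C1qa and Lyz2, were detected on no cell array. Of the tested fibroblast markers 6 of 9 were higher (summed intensity 3319 to 60325 against 1427 to 1998), with Col1a1, Col1a2, Lum, Pdgfrb, Postn and Thy1 detected on no cell array. Neutrophil markers were higher for 4 of 8, endothelial markers for 4 of 10 and red blood cell markers for 3 of 6, and 0 of 9 skeletal muscle, 0 of 4 T and NK cell and 0 of 1 B cell markers passed. Lyz2, C1qb, S100a8, Esam, Robo4 and Hbb-bt were detected on all 30 tumours and on 0 cell arrays, so no size is given for them. Dcn differed by 8.44, Pdgfra by 4.47, Mmp9 by 3.13 and Hbb-bs by 8.51. These were detected on 2, 6, 4 and 1 of the 6 cell arrays. The part of these host transcripts in the lower mitotic levels was not tested. With the 5 tumours left out that held muscle transcripts (mean muscle marker level over 8), 17 members were lower.

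Between the tumour groups the mitotic genes did not separate. The mean level over the 30 members, set relative to the mean of all tumours, averaged 0.03 ± 0.16 (SD) over the 10 young unirradiated tumours and 0.11 ± 0.15 over the 8 young irradiated ones. It averaged -0.12 ± 0.12 over the 7 tumours of middle-aged unirradiated mice and -0.07 ± 0.11 over the 5 of middle-aged irradiated mice. The 30 members include Ccna2 and Ube2c, which passed the filter only through young tumours, so these means do not compare the ages evenly. The cells were at 0.86 ± 0.06 over 6 arrays. Tumours ran from -0.17 to 0.28, from -0.23 to 0.27, from -0.25 to 0.12 and, in the last group, stood at -0.165, 0.0776, -0.121, -0.00457 and -0.153. All 4 ranges overlapped and none reached the cells, whose lowest array was at 0.77. The lowest tumours were middle-aged unirradiated replicate 7 and young irradiated replicate 5, and the highest was young unirradiated replicate 2.

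**Figure D4:**
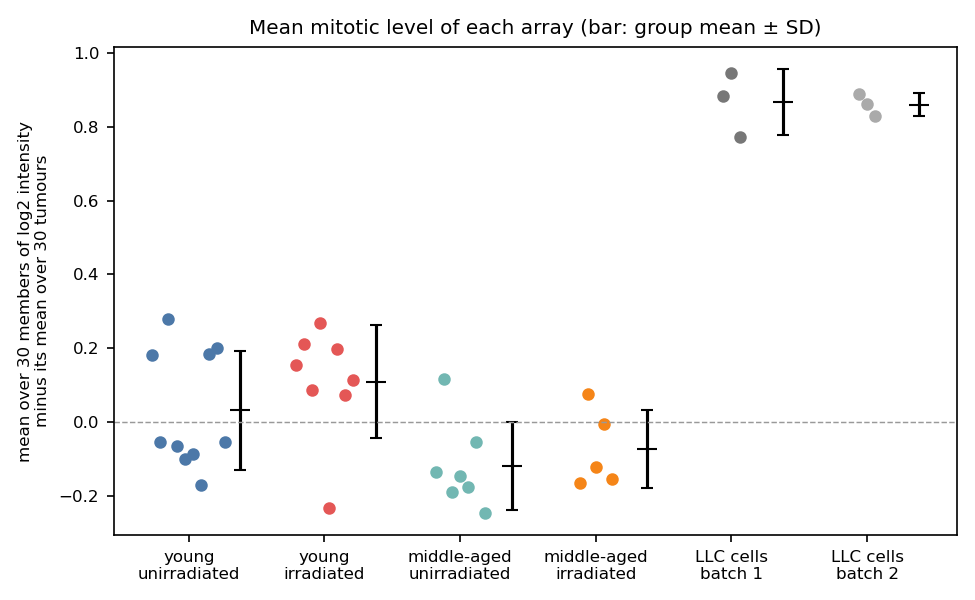
Mean over 30 members of log2 intensity minus its mean over 30 tumours, one point per array in 6 groups; bars give the group mean ± SD. The 30 tumours lie between -0.25 and 0.28 with overlapping groups, and the 6 cell arrays between 0.77 and 0.95. The members include Ccna2 and Ube2c, which were detected on young but no middle-aged tumours.

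For host age, 0 of 30 members passed the test with or without irradiation, and neither did any of the 10908 genes tested (0%), although most members had negative estimates after quantile normalization. Ccna2 and Ube2c entered these tests only through their detection in young tumours and are left out of the counts that follow, as are other genes undetected in a whole group. In unirradiated mice 23 of the other 28 members had a negative difference between middle-aged and young (median -0.13; all 10655 genes 0.00, with 49.1% negative). In irradiated mice 24 of 28 were negative (median -0.13; all 10599 genes 0.02, with 46.0% negative). These comparisons share no tumour. The difference was negative in both for 21 members (75.0%) against 3019 of 10415 genes detected in all 4 groups. The array normalization and the probe chosen were common to both. The members also varied together across tumours, as given further on, so their signs are not independent counts. With median scaling, which moved the median of all genes to 0.22 and 0.66, 11 and 2 of the 30 members were negative, and over these 30 the members' median stood -0.12 and -0.05 from that of all genes, against -0.14 and -0.17 with quantile normalization. At an unadjusted p under 0.05 there were 4 of these 28 members and 1466 genes in unirradiated mice, and 6 members and 734 genes in irradiated mice.

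The host cell markers, of which 0 passed in these comparisons, had estimates to one side in several lists. For age in unirradiated mice all 8 neutrophil markers (median -0.61), all 9 skeletal muscle markers (median -1.32), all 6 red blood cell markers (median -0.42) and 9 of 10 endothelial markers (median -0.14) had negative estimates, while 9 of 11 macrophage markers were positive (median 0.25) and 3 of 9 fibroblast markers were negative (median 0.02). For age in irradiated mice 4 of 8 neutrophil, 3 of 9 muscle, 5 of 6 red blood cell, 6 of 10 endothelial, 4 of 11 macrophage and 1 of 9 fibroblast markers were negative. Mb, Myh1 and Myh4 were detected on no middle-aged unirradiated tumour, so their signs for age in unirradiated mice do not measure a difference. The mean level of the muscle markers was 8.48, 10.73 and 10.61 in young unirradiated replicates 3, 7 and 8. Its median was 5.55 over young and 5.17 over middle-aged unirradiated tumours. The part of the host cell markers in the members' estimates was not tested. With the tumours that carry muscle transcripts left out, 26 of 30 members were negative in unirradiated mice (median -0.11) and 25 of 30 in irradiated mice (median -0.17), with Ccna2 and Ube2c included.

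In unirradiated mice the smallest p belonged to Nusap1. Its levels were 9.60 to 10.43 (median 10.12) in young and 9.33 to 10.01 (median 9.59) in middle-aged tumours, which overlapped, and the difference was -0.41 ± 0.12 (adjusted p = 0.172). Tpx2 ran from 6.70 to 8.40 (median 7.92) in young and from 6.70 to 8.01 (median 7.35) in middle-aged tumours, with a difference of -0.57 ± 0.18 (adjusted p = 0.204). Middle-aged replicates 3, 4 and 5 were the lowest of their group for both genes, at 6.70, 6.85 and 6.84 for Tpx2 and 9.58, 9.42 and 9.33 for Nusap1. Among the young tumours only replicate 5 was that low for Tpx2, and without it the Tpx2 difference was -0.69 (adjusted p = 0.0351), a setting in which 128 of all genes (1.17%) passed. Cdca8 differed by -0.30 ± 0.12 (adjusted p = 0.294), with 10.65 to 11.28 (median 10.85) in young and 10.34 to 10.98 (median 10.62) in middle-aged tumours, and Aurkb by -0.23 ± 0.10 (adjusted p = 0.336), with 9.30 to 9.87 (median 9.44) and 9.05 to 9.45 (median 9.29). Median scaling gave 0.065 for Aurkb, which is -0.15 relative to the median of all genes. In 8 genes with several detected probes, Anln, Birc5, Bub1b, Cenpa, Cenpf, Kif23, Mybl2 and Top2a, probes of the same gene had age differences of opposite sign. The other probe of Cdca8, detected on all 30 tumours, gave only -0.03 for age in unirradiated mice.

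In irradiated mice the 4 smallest p values were those of Cdca8, Aurkb, Ccna2 and Plk1. Cdca8 levels were 10.56 to 11.54 (median 10.96) in young irradiated tumours and 10.32, 10.59, 10.55, 10.69 and 10.52 in the middle-aged irradiated ones. The middle-aged values sat at the lower end of the young range or below it, and the difference was -0.49 ± 0.14 (adjusted p = 0.444). The other detected probe of Cdca8 gave -0.26. Aurkb was at 9.04 to 9.80 (median 9.63) in young and at 8.99, 9.31, 8.89, 9.34 and 9.29 in middle-aged tumours, a difference of -0.38 ± 0.12 (adjusted p = 0.480). Plk1 was at 10.01 to 11.31 (median 10.63) and at 9.95, 10.17, 9.95, 10.09 and 10.08, a difference of -0.53 ± 0.18 (adjusted p = 0.558). Ccna2 was at 4.99 to 5.94 (median 5.27) in young and 4.93, 4.88, 4.69, 5.01 and 4.77 in middle-aged tumours (means 5.39 and 4.86, adjusted p = 0.480). It was detected on 2 of 8 young and 0 of 5 middle-aged irradiated tumours. Since it entered the test only through young tumours, no fold is given. The groups overlapped for all 4 genes, and under median scaling Cdca8, Aurkb and Plk1, positive as such, stood -0.31, -0.23 and -0.35 from the median of all genes.

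Irradiation gave 0 of 30 members passing in young mice and 0 in middle-aged mice, and 0% of 10908 genes in either. In young mice 23 of 30 members had a positive difference between irradiated and unirradiated (median 0.10, all genes -0.01), and 0 members and 603 genes had an unadjusted p under 0.05. Without the dim arrays, both of them young irradiated, the median was 0.04 against 0.01 over all genes, with 9 members negative. Kif4 was at 8.81 to 9.47 (median 9.13) without and 8.76 to 9.72 (median 9.49) with irradiation, a difference of 0.25 ± 0.13. Other detected probes of Kif4 had the opposite sign, -0.20 and -0.05, while those of Anln (0.16) and Cdc20 (0.12 to 0.21) were positive. Cdc20 differed by 0.17 ± 0.10 (medians 11.18 and 11.40), Anln by 0.20 ± 0.12 (medians 11.80 and 12.01) and Aurka by 0.22 ± 0.15 (medians 9.62 and 9.82), and the groups overlapped in each (adjusted p = 0.903 for Kif4 and 0.910 for the others). Median scaling moved the median of all genes to -0.31 and these 4 differences below 0 with it, to 0.14, 0.02, 0.01 and 0.10 relative to that median for Kif4, Cdc20, Anln and Aurka. Relative to all genes, the members' median was 0.11 higher with quantile normalization and 0.00 with median scaling. Of the host markers 0 passed, and 6 of 8 neutrophil, 7 of 9 muscle, 6 of 6 red blood cell, 9 of 10 endothelial and 7 of 9 fibroblast markers were negative, with 9 of 11 macrophage markers positive. The mean muscle level was over 8 in young unirradiated replicates 3, 7 and 8 and in young irradiated replicate 1. Its group medians were 5.55 without and 5.78 with irradiation. The part of the host markers in the members' estimates was not tested.

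In middle-aged mice 15 of the 28 members detected in both groups were positive (median 0.09, all 10544 genes 0.00). Of these genes, 2 members and 664 of all had an unadjusted p under 0.05. Ccna2 and Ube2c, detected on no middle-aged tumour, are left out of these counts. Nusap1 was at 9.33 to 10.01 (median 9.59) in unirradiated tumours and at 9.80, 10.34, 10.11, 10.19 and 10.01 in irradiated ones, a difference of 0.43 ± 0.14 (adjusted p = 0.605). Tpx2 was at 6.70 to 8.01 (median 7.35) and at 7.60, 7.70, 7.86, 7.94 and 7.82, a difference of 0.57 ± 0.22 (adjusted p = 0.673). The irradiated tumours thus lay in the upper end of the unirradiated range or above it for both genes. Mad2l1 differed by 0.25 ± 0.14 (adjusted p = 0.813; 10.05 to 10.76, median 10.30, against 10.46, 10.64, 10.48, 10.72 and 10.72) and Aurka by 0.33 ± 0.18 (adjusted p = 0.815; 9.06 to 9.70, median 9.47, against 9.72, 10.00, 9.71, 9.92 and 9.47). With weights for array quality, Nusap1 and Tpx2 passed both in this comparison (0.51, adjusted p = 0.0272, and 0.69, adjusted p = 0.0295) and for age in unirradiated mice (-0.47, adjusted p = 0.0245, and -0.68, adjusted p = 0.0203). In that setting 233 genes (2.14%) and 424 genes (3.89%) of all 10908 passed. Both comparisons use the 7 middle-aged unirradiated tumours. For irradiation in middle-aged mice 0 host markers passed, all 8 neutrophil markers (median 0.29) and all 9 muscle markers (median 1.00) were positive, and 5 of 6 red blood cell, 8 of 11 macrophage and 6 of 9 fibroblast markers were negative. The mean level of the muscle markers was 8.86 in irradiated replicate 4, the highest of its group. The group medians of this level were 5.18 with and 5.17 without irradiation. Mb, Myh1 and Myh4 were detected on no middle-aged unirradiated tumour. The part of the host markers in the members' values was not tested.

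**Figure D5:**
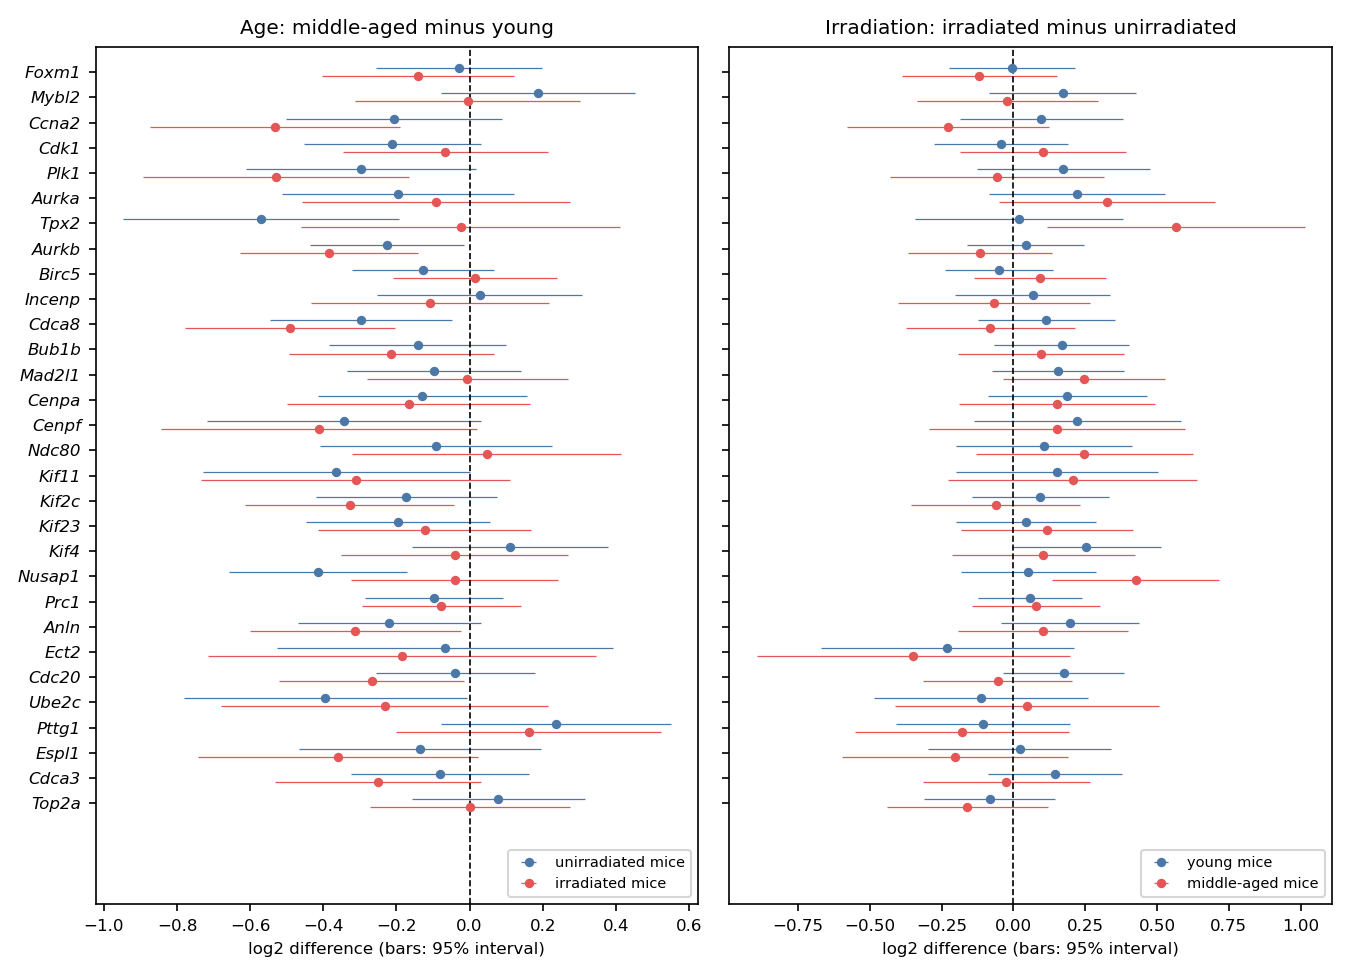
Log2 differences of 30 members with 95% intervals, for age on the left and irradiation on the right, in the 2 colours given in each panel. For age 25 and 26 of the 30 points are below 0 with quantile normalization (11 and 2 with median scaling), and 0 members passed the test in any of the 4 comparisons. Ccna2 and Ube2c were not well above background on any middle-aged array.

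The difference between the irradiation effects at the 2 ages gave 0 of 30 members and 0% of genes (1 member and 480 genes at an unadjusted p under 0.05). The smallest p values were those of Nusap1 (0.37 ± 0.18), Tpx2 (0.55 ± 0.28), Ccna2 (-0.32 ± 0.22, with the middle-aged groups not well above background) and Cdc20 (-0.23 ± 0.16; under median scaling 0.39, with all genes at a median of 0.42), all with an adjusted p of 0.978. Middle-aged irradiated against young unirradiated tumours, which share samples with the comparisons above, gave 0 of 30 members against 0.0183% of genes. In this comparison 22 members were negative (median -0.09), and 4 members and 653 genes had an unadjusted p under 0.05. Ccna2 is in both of these member counts and Ube2c is among the 22, although neither was detected on a middle-aged tumour. Aurkb differed there by -0.34 ± 0.11 (adjusted p = 0.564), Cdca8 by -0.38 ± 0.14 (adjusted p = 0.666) and Plk1 by -0.35 ± 0.17 (adjusted p = 0.830), with overlapping groups in each and values of -0.27, -0.31 and -0.29 relative to the median of all genes (0.33) under median scaling, where all 3 are positive as such. The other detected probe of Cdca8 gave -0.07 in this comparison. For Ccna2 (means 4.86 and 5.29) no fold is given, since the bound does not exceed 1. A 95% interval of these fits reached a median of 0.26 on either side of a member's estimate for age in unirradiated mice and 0.31 for irradiation in middle-aged mice. Differences above that size, such as those of Nusap1 and Tpx2, did not pass the adjustment over all genes.

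The cell arrays of batch 2 and batch 1 gave 0 of 31 members and 0% of 9295 genes in the limma fit (2 members and 274 genes at an unadjusted p under 0.05). Ccna2 was at 5.66, 5.68 and 5.70 in batch 2 and at 6.14, 6.15 and 6.29 in batch 1, without overlap, a difference of -0.52 ± 0.13 (adjusted p = 1.00). Ttk was at 5.79 to 6.21 in batch 2 and 5.42 to 5.57 in batch 1, a difference of 0.47 ± 0.16 (adjusted p = 1.00). Its probe was detected on 3 of the 6 cell arrays, the fewest this test allowed, so its values do not show whether the batches differ.

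Within the tumours the members varied together. Over all pairs of the 30 members the median Pearson correlation across the 30 tumours was 0.31, and 0.27 after group means were removed, against 0.01 over all tested genes. Without the dim arrays, young irradiated replicates 6 and 8, it was 0.31. Tumours share arrays, amplification and normalization, so this is a description. The members that followed the mean of the others most closely were Anln (r = 0.73), Prc1 (0.71) and Cdc20 (0.68), followed by Kif23 (0.68) and Bub1b (0.66). Pttg1 (0.11), Incenp (0.12), Ect2 (0.23) and Foxm1 (0.24) followed it least. Without the dim arrays these were 0.17 for Pttg1, 0.23 for Incenp, 0.41 for Ect2 and 0.37 for Foxm1, and Espl1 (0.31) and Ccna2 (0.34) then ranked below Ect2 and Foxm1. Of these, Pttg1 is dim, while Incenp followed Top2a (r = 0.79) and Ect2 also followed Top2a (0.67). Among the closest pairs were Cdca8 with Kif2c (0.80), Espl1 with Kif2c (0.80), Plk1 with Kif11 (0.80) and Prc1 with Kif23 (0.75). Ect2 varied most over the tumours (SD 0.48), and Prc1 (SD 0.17) and Birc5 (SD 0.17) varied least.

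The genes outside the list whose levels followed the mean member level most closely over the 30 tumours, after removal of group means, were Mns1 (r = 0.85), the replicative helicase subunit Mcm5 (0.80), the PCNA-associated factor Pclaf (0.77), the condensin subunit Ncaph (0.77), Kntc1 (0.76), Cdca2 (0.74), Troap (0.74), Parpbp (0.72), Cenpn (0.72) and Haus6 (0.71). The most negative were Usp22 (-0.73), Chkb (-0.72), Gosr2 (-0.72), Cyb561 (-0.72) and Phf20 (-0.71). The mean level of the 28 replication genes followed the members at r = 0.76, that of the 21 other spindle genes at 0.76 and that of the 25 other kinetochore genes at 0.74. G1 cyclins and kinases stood at 0.30, inhibitors of cyclin-dependent kinases at 0.08 and the anaphase-promoting complex at -0.03. For the marker lists the values were -0.12 for macrophages, 0.02 for neutrophils, -0.01 for endothelial cells, 0.23 for fibroblasts, 0.18 for skeletal muscle and 0.29 for red blood cells.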

How the data were processed

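RNA was extracted with TRIzol, per the labels' protocols, or RNeasy, per the series text. Per the file headers, the deposited values are a linear intensity per probe and array, with the p-value of its detection, without normalization between arrays. GenomeStudio is named in the submitters' processing notes. Normalized intensity values, deposited by the authors separately and called rank variant normalized in the series text, served as an alternative after a floor of 16. The number of arrays limits precision.

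Signals of 45281 probes were background corrected (normexp from detection p-values, offset 16), quantile normalized and log2 transformed. Symbols came from the platform's table (34885 probes with 1 symbol, 18 with several, 10378 not listed). The brightest probe over the tumours stood for a gene. Genes detected on at least 5 tumours, or at least 5 arrays in comparisons with cells and 3 in the comparison of cell batches, were tested with limma 3.58.1 in R 4.3.3, with Benjamini-Hochberg adjustment over all tested genes and a threshold of 0.05. The 4 tumour groups entered 1 fit; in comparisons with cells the 6 cell arrays were averaged to 1 sample. The steps were tested on simulated data with the spread of the tumours. For tumours against cells, 39 of 100 genes changed by 1 log2 unit passed, and 92 of 100 changed by 2. For age in unirradiated mice 92 and 100 of 100 passed. A member that did not pass against cells may therefore still differ by about 1 log2 unit.

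The members and gene lists were chosen with earlier results of these data known. Values were printed for the 8 members with the smallest p against cells and the 4 smallest in each tumour comparison, for 2 genes per other list, and for the genes most and least correlated with the members; other members and markers were summarised by role. Alternatives covered background correction, normalization, filter, probe choice, weights, brightness, cell batches, left-out arrays and the replicate number. No chip or batch is given for tumours, so values within batches were not computed. Across tumours of different groups, the deviations of same-numbered samples correlated at -0.34 to 0.40 (median 0.05; 14 of 37 pairs over 0.1), so not every pair deviated together and the numbers were not taken as pairs.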

Additional observations from a re-analysis of the deposited data

Results flagged for a closer look

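Among 124 sets of values tested (members or the mean member level in groups of 5 to 10 tumours), 3 held a sample far from its group, where chance gives about 6.2. Cenpa, the centromeric histone, stood at 14.03 in young irradiated replicate 2 and at 12.75 to 13.21 in the other 7 tumours of that group. This array had the highest unnormalized signal, and the part of its brightness in the value was not tested. Ndc80 stood at 8.85 in middle-aged irradiated replicate 2 and at 8.53 to 8.62 in the other 4. The mean member level was -0.23 in young irradiated replicate 5 and 0.07 to 0.27 in the other 7 of its group. For no member did the irradiation effect pass a test of its difference between the ages.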

How the results depend on the processing

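Limits come from 5 to 10 tumours a group, 1 averaged cell sample and no batch labels for tumours. Median scaling in place of quantile normalization changed most. Member calls against cells went from 19 to 2, and from 17 to 1 in young unirradiated, 13 to 1 in young irradiated, 21 to 2 in middle-aged unirradiated and 19 to 2 in middle-aged irradiated tumours, while medians fell further. In tumour comparisons it reversed Anln (-0.30), Aurka (-0.21), Cdc20 (-0.29) and Kif4 (-0.17) for irradiation in young mice, Aurkb (0.44), Cdca8 (0.36) and Plk1 (0.31) for age in irradiated mice, Aurkb (0.065) for age in unirradiated mice, Aurkb (0.055), Cdca8 (0.018) and Plk1 (0.038) for middle-aged irradiated against young unirradiated, and Cdc20 (0.39) for the difference between the irradiation effects. It shifted the median of all genes by 0.22 and 0.66 for age and by -0.31 and 0.11 for irradiation. With Ccna2 and Ube2c included, the mean member level of middle-aged minus young unirradiated tumours moved from -0.15 to 0.080. Relative to all genes, the members' median for age, also with these genes, was -0.12 in unirradiated and -0.05 in irradiated mice with median scaling, against -0.14 and -0.17. Relative to the median of all genes under that scaling, each of these reversed differences kept its sign, at 0.02 or less in size for Anln and Cdc20 in young mice. The cause was not tested.

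With array quality weights, 2 members passed for age in unirradiated mice (424 of all genes, 3.89%) and 2 for irradiation in middle-aged mice (233, 2.14%). The mean of detected probes gave 20 calls for young irradiated tumours against cells. The authors' values turned Cenpf to 0.045 against cells. Apart from median scaling, the calls against cells lay between 17 and 24. Leaving out the dim arrays gave 23. Chosen after seeing the data, leaving out the bright arrays gave 20 and the tumours with muscle transcripts 17. Single cell arrays were left out only in the comparison of cell batches, with 0 calls, and not in the comparisons with tumours. Leaving out each tumour in turn gave 19 to 21 calls against cells, and 17 to 19, 12 to 15, 16 to 22 and 17 to 21 by group. For age in unirradiated mice it gave 0 to 1, with Tpx2 passing without young unirradiated replicate 5 (128 of all genes), and in the other tumour comparisons 0. With the replicate number as a block, 0 members passed in any tumour comparison or between cell batches, and no call changed.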
